A study of Homo sapiens with 12 samples.

Results

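The comparison described here set HCT116 cells in which wild-type AGO2 had been put back against AGO2 knockout cells of the same line. HCT116 is a human colorectal carcinoma line. All 15074 genes of the authors' deposited table for this comparison were taken, which is every gene that the series reports. The study had 12 libraries in 4 groups of 3: unmodified cells (Parental), AGO2_KO cells, and cells carrying FH-AGO2_WT or FH-AGO2_5xA, which the design text describes as reconstituted. Below, FH-WT and FH-5xA stand for the reconstituted lines, and knockout for AGO2_KO. The 6 libraries compared were the 3 of FH-WT and the 3 of knockout, and the labels name no drug in any group. The word reconstituted is taken to mean that FH-WT and FH-5xA cells carry the knockout as well. The 5xA form has phosphorylation sites of AGO2 replaced by alanine. Per the labels' protocols, 500000 cells went into each of 3 wells and were collected 48 h later. Stranded libraries were made from total RNA after removal of its ribosomal part. The labels do not say how the knockout was made, what drives FH-AGO2, or whether a line is 1 clone. The p-values therefore measure the spread between wells of a line, and the effect of AGO2 cannot be told apart from other differences between these lines.

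AGO2 is the Argonaute protein that holds a microRNA and uses it to find mRNAs. Pairing rests mainly on the microRNA's seed, the short stretch near its 5′ end, and on matching sites in the 3′ untranslated region (3′ UTR) of the mRNA. TNRC6 proteins, also called GW182, bind Argonaute and recruit deadenylases, after which the mRNA is decapped and degraded. AGO2 is also the human Argonaute best known for cutting fully paired targets, and AGO1, AGO3 and AGO4 carry microRNAs too.

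Fold changes below are log2 values of FH-WT over knockout, with a standard error (SE) derived from the deposited likelihood ratio. A gene was called when its deposited edgeR false discovery rate was under 0.05. Levels are fitted group levels in CPM, read counts scaled to the size of the library, computed from the deposited mean expression and fold changes, so they carry no spread over libraries. Values of single libraries were not analysed here, so depth is unknown per library. Across genes, mean expression had a median of 4.45 on the log2 CPM scale, between -0.95 and 12.96. The median SE was 0.122, or 0.325 for the 307 genes under 1 CPM. Colon epithelial markers were partly present: KRT8, KRT18, EPCAM, CDX2 and HNF4A were measured, and the other 7 of 12 markers were not among the genes tested. Among markers of other cells, those tested were 0 of 10 blood genes, 1 of 9 endothelial genes, 2 of 10 fibroblast genes and 6 of 12 genes of neural tissue or embryonic kidney.

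The return of wild-type AGO2 went with moderate changes in many genes. By the authors' deposited test, 10.1% of genes were called, 634 higher (4.21%) and 882 lower (5.85%). With an F distribution in place of the chi-square distribution of that test, 86 genes were called, 15 higher and 71 lower, and 16 of the 126 members of gene lists that are called below. The median change was 0.39 among genes called higher and -0.40 among genes called lower in the authors' deposited table. Only 36 of the called genes rose and 39 fell 2-fold or more in the authors' deposited table, and 329 changed at least 1.5-fold (2.18%). The balance of directions depended on scaling. RNA of the mitochondrial genome took a larger share of FH-WT libraries, as described further on. In a setting called the added shift below, about 0.04 was added to every log2 fold change outside the mitochondrial genome. This value came from the mitochondrial shares alone, as if fitted levels had the same sum in both groups. The sums were 1035740 CPM in FH-WT and 982434 CPM in knockout, so a lowering of other fold changes by mitochondrial RNA is not shown. Scaling by the fitted levels outside the mitochondrial genome would move the fold changes the other way and was not run. With the added shift, 1012 genes were called higher and 658 lower. The higher genes then made up 60.6% of the calls in place of 41.8%. Counts with the added shift show only how calls respond to a shift of that size and direction. For comparison, 44.4% of genes were called in knockout against parental, 34.4% in FH-WT against parental and 11.3% in FH-5xA against knockout in the authors' deposited tables. In RNA from whole wells, fewer cells of a type and less RNA per cell cannot be told apart. The other comparisons share libraries with the one described, so their values are given side by side and are not independent.

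**Figure D1:**
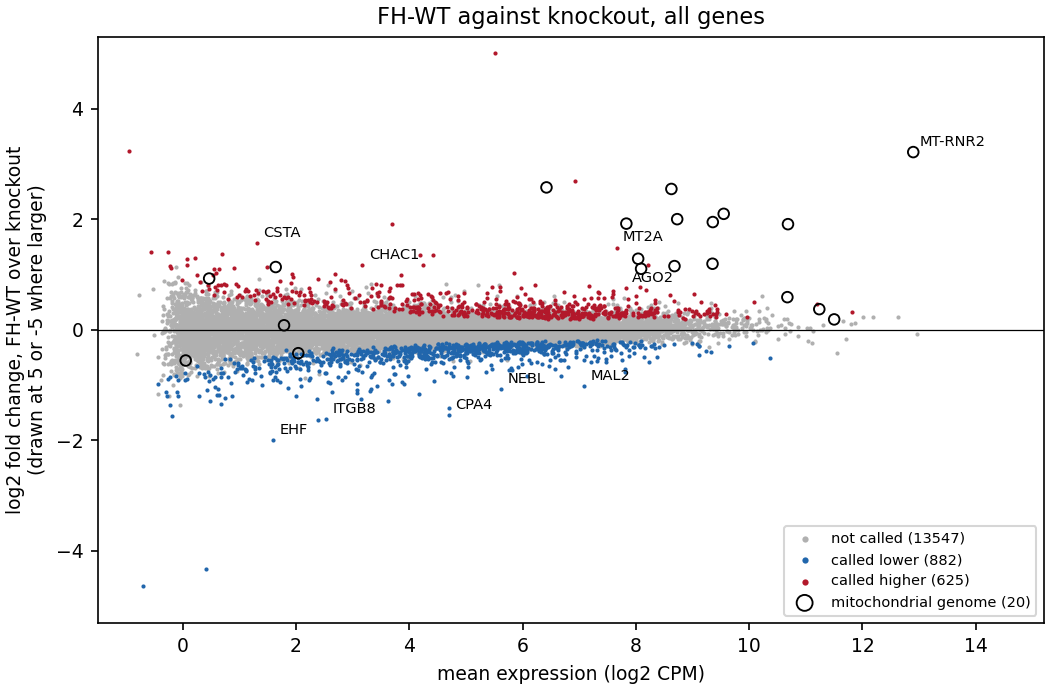
Log2 fold change of FH-WT over knockout (vertical axis, values beyond 5 or -5 drawn at those limits) against mean expression in log2 CPM (horizontal axis) for 15074 genes; red points were called higher, blue points lower, grey points were not called, and open circles are the 20 genes of the mitochondrial genome. Of the called genes 36 rose and 39 fell 2-fold or more, and the highly expressed genes with the largest rises are mitochondrial.

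AGO2 itself (ENSG00000123908, chromosome 8, 140520156 to 140635619, GRCh38) checks the direction of the labels. Its fitted level was 205 CPM in parental cells, 161 CPM in knockout, 270 CPM in FH-WT and 267 CPM in FH-5xA. The lowest level was thus in the knockout, where the transcript was still present, and both lines given FH-AGO2 lay above parental cells. In FH-WT against knockout AGO2 rose by 0.75 ± 0.07 in the authors' deposited table (edgeR false discovery rate 1.0e-24), a 1.68-fold change. The position of the edit in AGO2_KO is unknown here, and the protein was not measured.

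The other genes of the microRNA pathway moved little. Of 26 listed genes 22 were measured, and AGO2 was the 1 called higher, while 3 were called lower and the median was 0.03, beside 0.01 over all genes. The shares called over all genes were 4.21% higher and 5.85% lower. The genes called lower were AGO4 at -0.48 ± 0.11, DICER1 at -0.42 ± 0.08 and AGO1 at -0.27 ± 0.08 in the authors' deposited table. DICER1 is the nuclease that cuts precursors into mature microRNAs, and its fitted level was 188 CPM in parental cells, 276 CPM in knockout, 207 CPM in FH-WT and 179 CPM in FH-5xA. AGO4 stood at 16.3 CPM in parental cells, 24.6 CPM in knockout, 17.6 CPM in FH-WT and 18.1 CPM in FH-5xA. For both genes the knockout had the highest of the 4 levels.

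None of the GW182 scaffolds was called: TNRC6A was at -0.08 ± 0.08, TNRC6B at -0.13 ± 0.08 and TNRC6C at 0.25 ± 0.12 in the authors' deposited table. AGO3 was at -0.10 ± 0.07 in the authors' deposited table, and the nuclear processing genes DROSHA and DGCR8 had changes of 0.11 ± 0.12 and 0.19 ± 0.08. The export receptor XPO5 stood at 0.00 ± 0.09 in the authors' deposited table. With the added shift, DGCR8 was called higher. The remaining measured members were uncalled and ran from -0.12 for the ubiquitin ligase receptor ZSWIM8 and the importin IPO8 to 0.23 for the chaperones HSP90AB1 and HSPA8 in the authors' deposited table. Between those ends lay TUT4 at -0.06, TUT7 at -0.08, TARBP2 at 0.06, TSN at 0.09, HSP90AA1 at 0.12, TSNAX at 0.13 and PRKRA at 0.15 in the authors' deposited table.

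Genes of the Argonaute phosphorylation cycle, in which casein kinase 1 and protein phosphatase 6 act on Argonaute, were not called in any of 13 measured cases (median -0.01). Lowest among them was ANKRD52, a regulatory subunit of the phosphatase, at -0.31 ± 0.13 (edgeR false discovery rate 0.12) in the authors' deposited table. The catalytic subunit PPP6C was at -0.19 ± 0.09, the kinase CSNK1G3 at -0.21 ± 0.09 and the kinase CSNK1A1 at 0.10 ± 0.07 in the authors' deposited table. The others were ANKRD28 at -0.13, ANKRD44 at 0.38 with an SE of 0.28, PPP6R1 at -0.01, PPP6R2 at -0.15, PPP6R3 at 0.05, CSNK1D at 0.09, CSNK1E at 0.10, CSNK1G1 at -0.07 and CSNK1G2 at 0.17 in the authors' deposited table. Of 26 mRNA decay factors 2 were called lower and 0 higher, a share near the 5.85% called lower over all genes: the deadenylase CNOT6 at -0.43 ± 0.10 and the decapping enzyme DCP2 at -0.41 ± 0.11 in the authors' deposited table.

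The largest falls among protein-coding genes of at least 1 CPM took different courses across the 4 groups. In a first set the level had been higher in knockout than in parental cells and came back down with FH-WT. EHF, an epithelial transcription factor of the ETS family (chromosome 11, 34621093 to 34661057), had fitted levels of 1.32 CPM in parental cells, 6.38 CPM in knockout, 1.59 CPM in FH-WT and 2.83 CPM in FH-5xA. It fell by 2.0 ± 0.16 in the authors' deposited table (edgeR false discovery rate 2.3e-33), and its level in FH-WT lay beside that of parental cells. NEBL, which encodes the actin-binding protein nebulette (chromosome 10, 20779973 to 21174187), went from 82.2 CPM in knockout to 39.0 CPM in FH-WT, beside 37.5 CPM in parental cells, and fell by 1.08 ± 0.09 in the authors' deposited table. DPP4, a cell-surface peptidase, had 16 CPM in knockout, 6.73 CPM in FH-WT and 5.88 CPM in parental cells, with a change of -1.25 ± 0.12 in the authors' deposited table.

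For others of this set FH-WT covered a smaller part of the distance to parental cells. CPA4, a carboxypeptidase (chromosome 7, 130293134 to 130324180), had the smallest p of the table: its level was 3.53 CPM in parental cells, 58.9 CPM in knockout, 20.1 CPM in FH-WT and 20.9 CPM in FH-5xA. It fell by 1.55 ± 0.11 in the authors' deposited table (edgeR false discovery rate 1.8e-41), 2.93-fold, and still stood well above its parental level. TFPI, the inhibitor of tissue factor, fell by 0.84 ± 0.08 in the authors' deposited table, from 113 CPM in knockout to 63.1 CPM in FH-WT, with 34.5 CPM in parental cells. The matrix crosslinking enzyme LOXL4, at 10.9 CPM in knockout, 5.02 CPM in FH-WT and 1.25 CPM in parental cells, changed by -1.12 ± 0.11 in the authors' deposited table. BIRC3, an inhibitor of apoptosis, and VCAN, the matrix proteoglycan versican, fell by 1.02 ± 0.10 and 0.83 ± 0.08 in the authors' deposited table. The selenium carrier SELENOP at -1.20 ± 0.16, the interferon gene IFNE at -1.23 ± 0.28, C1orf116 at -1.34 ± 0.30 and CYP4F12 at -1.29 ± 0.25 in the authors' deposited table were also highest in knockout among the 4 groups.

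In a second set the level was already lower in knockout than in parental cells, and FH-WT took it further down. ITGB8, an integrin that activates latent TGF-beta (chromosome 7, 20330702 to 20415754), had 14.7 CPM in parental cells, 4.17 CPM in knockout, 1.36 CPM in FH-WT and 2.89 CPM in FH-5xA. Its change was -1.62 ± 0.21 in the authors' deposited table, a 3.06-fold fall. MAL2, a protein of apical membrane transport in epithelia, went from 352 CPM in parental cells to 89.9 CPM in knockout and 44.2 CPM in FH-WT, with a change of -1.02 ± 0.09 in the authors' deposited table. The glutamate receptor subunit GRIN2B (32.9 CPM in parental cells, 8.92 CPM in knockout, 3.67 CPM in FH-WT) changed by -1.28 ± 0.16 in the authors' deposited table. CELF2, an RNA-binding splicing regulator, at -1.26 ± 0.17 and the potassium channel KCNH8 at -1.20 ± 0.23 in the authors' deposited table had the same order of levels. ZNF615 was near zero in both groups, at 0.119 CPM in knockout and 0.0059 CPM in FH-WT, so its fitted value of -4.33 ± 1.5 in the authors' deposited table depends on the prior count and is no bound.

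Among the 12 largest protein-coding rises at 1 CPM or more, some levels moved toward those of parental cells and others away from them. CSTA, a cysteine protease inhibitor of epithelia (chromosome 3, 122325244 to 122341972), had 7.11 CPM in parental cells, 0.513 CPM in knockout, 1.53 CPM in FH-WT and 0.779 CPM in FH-5xA, and rose by 1.57 ± 0.28 in the authors' deposited table. CHAC1, a glutathione-degrading enzyme induced by ATF4, had 16.5 CPM in parental cells, 4.31 CPM in knockout, 9.74 CPM in FH-WT and 5.53 CPM in FH-5xA, and rose by 1.18 ± 0.19 in the authors' deposited table. The sialic acid receptor CD33 rose by 1.02 ± 0.17 in the authors' deposited table, from 1.74 CPM to 3.53 CPM, with 6.89 CPM in parental cells. Others rose past the parental level: ATN1, which encodes the corepressor atrophin, had 7.73 CPM in parental cells, 12.6 CPM in knockout, 32.5 CPM in FH-WT and 32.2 CPM in FH-5xA, with a change of 1.36 ± 0.36 in the authors' deposited table. The growth factor gene IGF2 at 1.12 ± 0.33, PRR36 at 1.30 ± 0.37 and PALM3 at 0.91 ± 0.26 in the authors' deposited table were likewise above their parental levels. ANP32D at 1.37 ± 0.35 and SPRR2D, a cornified envelope gene, at 1.28 ± 0.24 in the authors' deposited table belong to families with similar copies that can share reads, and remain uncertain.

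Metallothioneins, small proteins that bind zinc and copper, stood together on chromosome 16 among the largest rises. MT2A (56608199 to 56609497) had 212 CPM in parental cells, 121 CPM in knockout, 340 CPM in FH-WT and 137 CPM in FH-5xA, and rose by 1.49 ± 0.31 in the authors' deposited table, 2.80-fold. MT1E (56625475 to 56627112) had 358 CPM, 199 CPM, 448 CPM and 182 CPM in the same order, and rose by 1.17 ± 0.17 in the authors' deposited table. MT1X rose by 0.99 ± 0.22 in the authors' deposited table, from 10.5 CPM to 20.8 CPM. In each of these the FH-WT level was above all 3 other groups and the FH-5xA level was close to knockout. MT1F, the remaining member tested, was looked up after the values of the others were seen and was not called, at 0.58 ± 0.22 in the authors' deposited table (edgeR false discovery rate 0.072). These genes resemble each other, so reads may be split between them.

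**Figure D2:**
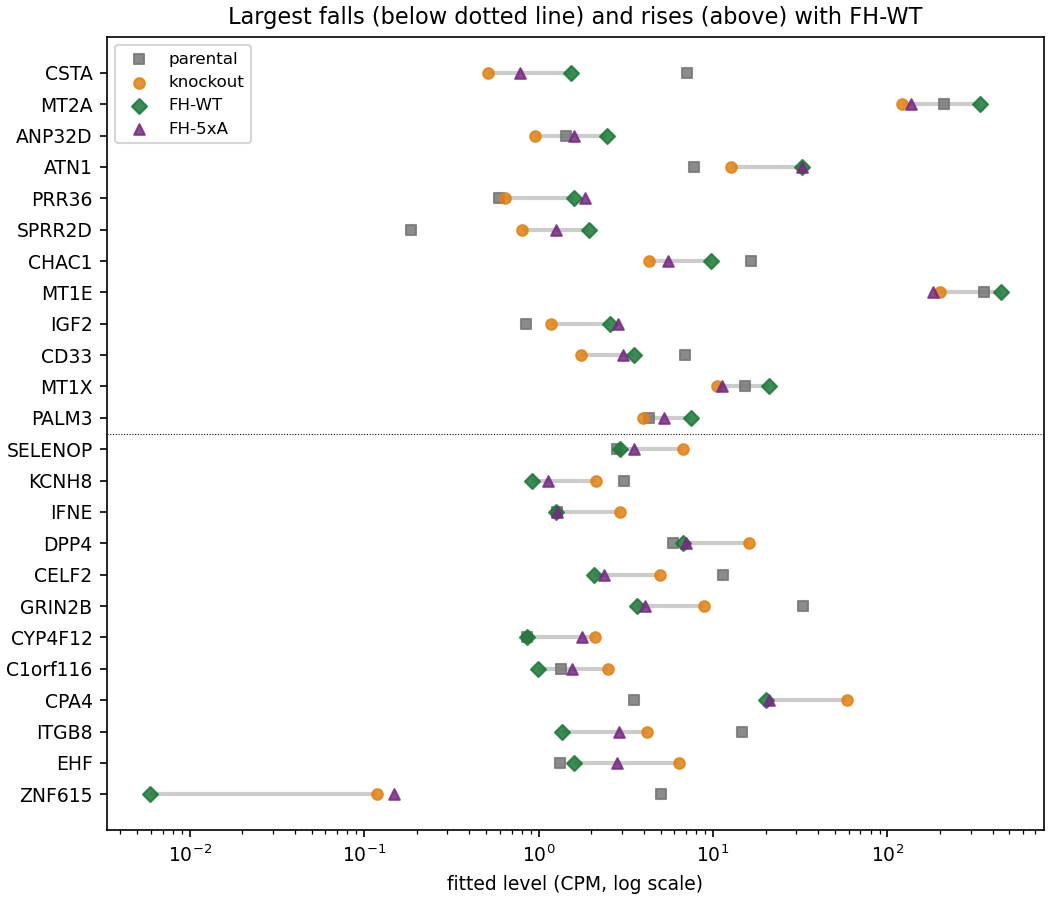
Fitted levels in CPM (log scale) of the 12 protein-coding genes with the largest falls (below the dotted line) and the 12 with the largest rises (above it) in parental, knockout, FH-WT and FH-5xA cells; grey bars join knockout and FH-WT. EHF and DPP4 return to near their parental level, ITGB8 and GRIN2B move further from it, and MT2A and MT1E are high in FH-WT but not in FH-5xA.

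Genes of amino acid supply and protein synthesis were examined next, beside 4.21% of all genes called higher and 5.85% called lower. The list for ATF4 and the unfolded protein response had 22 measured genes, of which 10 were called higher and 0 lower (median 0.31), or 4 higher with the F distribution. ASNS, the asparagine synthetase, had 404 CPM in parental cells, 166 CPM in knockout, 284 CPM in FH-WT and 228 CPM in FH-5xA, and rose by 0.78 ± 0.09 in the authors' deposited table. TRIB3, a pseudokinase that feeds back on ATF4, rose by 0.77 ± 0.10 and PHGDH, the first enzyme of serine synthesis, by 0.57 ± 0.07 in the authors' deposited table. ATF4 itself, chosen after its value was seen, was at 0.52 ± 0.09 in the authors' deposited table. The called members were mostly genes of amino acid synthesis, uptake and the integrated stress response. Uncalled members in the authors' deposited table included the chaperone HSPA5 at 0.01 ± 0.09 and XBP1 at 0.08 ± 0.08, both picked after their values were seen. Also uncalled were ATF3 at -0.07, SESN2 at -0.04, CEBPB at 0.13, SHMT2 at 0.15, DDIT4 at 0.21 and SDF2L1 at 0.33. The calls thus do not divide the list cleanly between ATF4 genes and the unfolded protein response. Aminoacyl-tRNA synthetases, which charge tRNAs, had 7 of 19 members called higher and 0 lower (median 0.21), or 0 higher with the F distribution. Examples were WARS1 at 0.39 ± 0.07, YARS1 at 0.39 ± 0.07 and NARS1 at 0.37 ± 0.10 in the authors' deposited table. Cytosolic ribosomal protein genes had 0 of 21 called (median 0.05), and RPS2 was nearest at 0.24 ± 0.10 in the authors' deposited table. With the added shift, 12 ATF4 genes, 11 synthetases and 1 ribosomal protein gene, RPS2, were called higher.

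Of 27 E2F cell cycle genes 10 were called higher and 0 lower (median 0.20), or 0 higher with the F distribution. The shares over all genes were 4.21% higher and 5.85% lower in the deposited test. RRM2, which makes deoxynucleotides, had 589 CPM in parental cells, 459 CPM in knockout, 580 CPM in FH-WT and 519 CPM in FH-5xA, with a change of 0.34 ± 0.07 in the authors' deposited table. The cyclin CCNE1 was at 0.38 ± 0.08, the replication factor CDC45 at 0.32 ± 0.07 and the helicase subunit MCM4 at 0.28 ± 0.07 in the authors' deposited table. All of these changes were under 1.5-fold. Among replication-dependent histones 2 of 15 were called higher, H4C8 at 0.46 ± 0.10 and H2BC21 at 0.36 ± 0.11 in the authors' deposited table, and 0 lower (median 0.32). Histone copies are alike in sequence, and their reads may be shared. In cholesterol synthesis 4 of 26 genes were called higher and 0 lower (median 0.08), the largest being IDI1 at 0.39 ± 0.08 in the authors' deposited table. The added shift raised the counts to 15 for E2F genes, 3 for histones and 6 for cholesterol synthesis.

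Textbook targets of microRNA families were counted, beside 4.21% of all genes called higher and 5.85% called lower. Of 21 measured targets of the miR-17 family, 10 were called lower and 0 higher (median -0.26, beside 0.01 over all genes). Of the 21, 7 were called lower with the added shift and 1 with the F distribution. TP53INP1, a p53-induced stress gene, went from 87.9 CPM in knockout to 53.2 CPM in FH-WT, with 24.5 CPM in parental cells, and fell by 0.73 ± 0.11 in the authors' deposited table. The TGF-beta receptor TGFBR2 fell by 0.54 ± 0.09, the death receptor TNFRSF21 by 0.40 ± 0.09 and the signal transducer STAT3 by 0.38 ± 0.07 in the authors' deposited table. Of 14 measured miR-19 targets 5 were called lower and 0 higher (median -0.15), or 2 lower with the F distribution, among them ATXN1, the ataxin 1 gene, at -0.68 ± 0.08, the acetyltransferase KAT2B at -0.52 ± 0.13 and the proapoptotic BCL2L11 at -0.41 ± 0.11 in the authors' deposited table. Of 16 measured miR-200 targets 4 were called lower and 0 higher (median -0.12), or 3 lower with the added shift and 0 with the F distribution. The 4 were KLF9 at -0.58 ± 0.13, FN1 at -0.48 ± 0.13, MAML2 at -0.47 ± 0.16 and SEC23A at -0.27 ± 0.08 in the authors' deposited table. ZEB1, the repressor best known as a miR-200 target, was at 0.15 ± 0.09 in the authors' deposited table and was not called, with 32.1 CPM in knockout, 35.6 CPM in FH-WT and 8.03 CPM in parental cells.

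Targets of other families were mixed or few, beside 4.21% of all genes called higher and 5.85% called lower. For miR-21, 6 of 19 were called lower and 1 higher (median -0.07). SATB1, a chromatin organiser, fell by 1.0 ± 0.21, the antiproliferative BTG2 by 0.42 ± 0.11 and the nuclear receptor PPARA by 0.39 ± 0.10 in the authors' deposited table. For let-7, 3 of 21 were called lower and 3 higher (median -0.06). HMGA2, a chromatin protein and the classic let-7 target, had 245 CPM in parental cells, 468 CPM in knockout, 334 CPM in FH-WT and 274 CPM in FH-5xA, and fell by 0.49 ± 0.08 in the authors' deposited table. The let-7 targets called higher included RRM2, which is also on the E2F list, and IGF2BP3 at 0.20 ± 0.07 in the authors' deposited table. For miR-15/16, 3 of 17 were lower and 3 higher (median 0.08), or 1 lower and 4 higher with the added shift. The apoptosis inhibitor BCL2 rose by 0.43 ± 0.14 and PDCD4 fell by 0.31 ± 0.08 in the authors' deposited table. For miR-34, 3 of 16 were lower and 2 higher (median -0.04), with MET at -0.24 ± 0.08 and CDK6 at -0.27 ± 0.09 in the authors' deposited table. The count of miR-34 targets called lower was 0 with the added shift. For miR-29, 1 of 13 was lower, CDK6, and 0 higher (median -0.10), and with the added shift 0 were called lower. These lists overlap, since TP53INP1, BCL2L11 and CDK6 each stand on more than 1. Of 16 microRNA host transcripts 2 were called lower, MIR31HG at -0.97 ± 0.25 and CTDSPL at -0.46 ± 0.07, and 1 higher, DLEU2 at 0.42 ± 0.11, in the authors' deposited table.

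Stress and cytokine lists had calls in the lower direction, beside 5.85% of all genes called lower and 4.21% called higher. Of 27 p53 targets 11 were called lower and 0 higher (median -0.16), or 1 lower with the F distribution. CDKN1A, TP53INP1 and BTG2 among them were also counted above as called targets of miR-17, miR-19 or miR-21. The mitochondrial quality control gene SPATA18 was at -0.75 ± 0.14, the RNA-binding protein ZMAT3 at -0.54 ± 0.10 and the kinase PLK2 at -0.37 ± 0.07 in the authors' deposited table. Interferon-stimulated genes had 7 of 15 called lower and 0 higher (median -0.37), or 2 lower with the F distribution. IFIT2, an antiviral RNA-binding protein, had 1.69 CPM in parental cells, 8.52 CPM in knockout, 4.52 CPM in FH-WT and 3.91 CPM in FH-5xA, and fell by 0.91 ± 0.13 in the authors' deposited table. The RNA sensors IFIH1 and RIGI fell by 0.85 ± 0.11 and 0.50 ± 0.09, and IFIT1 by 0.76 ± 0.14, in the authors' deposited table. With the added shift 4 interferon-stimulated genes were called lower.

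Of 11 measured NF-kB targets 3 were called lower and 0 higher (median -0.27), or 1 lower with the F distribution: the chemokine CXCL8 at -1.20 ± 0.28, BIRC3, and the NF-kB inhibitor NFKBIA at -0.31 ± 0.10 in the authors' deposited table. Hypoxia and glycolysis genes had 8 of 23 called lower and 0 higher (median -0.23), or 1 lower with the F distribution. The mitophagy receptor BNIP3L was at -0.59 ± 0.08, the glucose transporter SLC2A1 at -0.57 ± 0.10, NDRG1 at -0.44 ± 0.10 and the collagen hydroxylase P4HA1 at -0.28 ± 0.08 in the authors' deposited table. MAPK feedback genes had 5 of 16 called lower and 0 higher, with a median of 0.04, but 3 lower and 2 higher with the added shift. EPHA4 was at -0.43 ± 0.12 and DUSP4, a phosphatase of MAP kinases, at -0.26 ± 0.07 in the authors' deposited table. Immediate early genes had 1 of 18 called, EGR1, higher by 0.81 ± 0.25 in the authors' deposited table. YAP targets had 2 of 13 called lower and 0 higher (median -0.08), PTPN14 at -0.36 ± 0.08 and the tissue factor gene F3 at -0.36 ± 0.08 in the authors' deposited table. WNT targets had 1 of 11 higher, the WNT antagonist DKK1 at 0.64 ± 0.11, and 2 lower, RNF43 at -0.29 ± 0.08 and CCND1 at -0.26 ± 0.09, in the authors' deposited table. Over all genes 4.21% were called higher and 5.85% lower. The 1 or 2 calls in the immediate early, YAP and WNT lists are therefore not read as results about those lists.

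**Figure D3:**
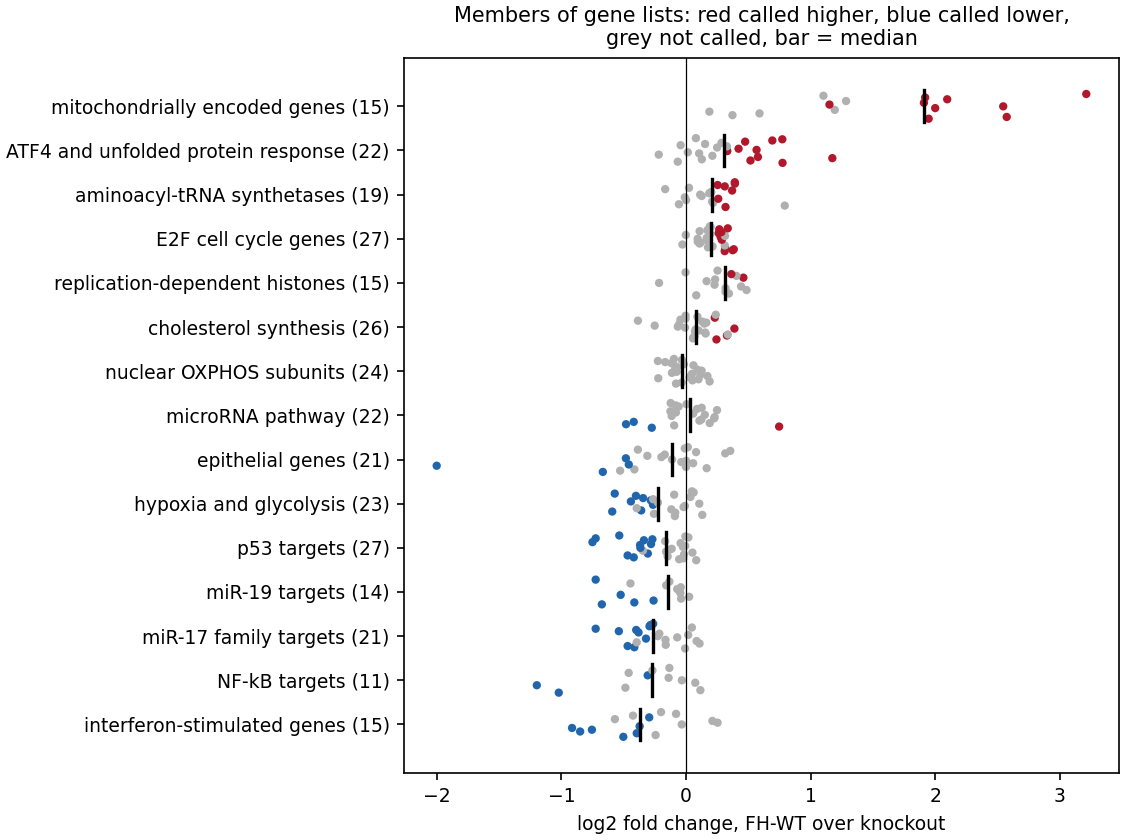
Log2 fold change of FH-WT over knockout for the measured members of 15 gene lists, one point per gene (red called higher, blue called lower, grey not called), with a black bar at each list's median and the number of members in brackets. Members of the ATF4, tRNA synthetase and E2F lists lie mostly right of 0 and interferon, NF-kB, miR-17 and p53 targets mostly left of it; the mitochondrial genes span 0.19 to 3.21.

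Among epithelial genes, 21 were measured, and 4 were called lower and 0 higher (median -0.11). Besides EHF these were CDH1, which encodes E-cadherin, at -0.67 ± 0.10, the transcription factor GRHL2 at -0.48 ± 0.16 and the ETS factor ELF3 at -0.46 ± 0.10 in the authors' deposited table. CDH1 had 49.1 CPM in parental cells, 25 CPM in knockout, 15.8 CPM in FH-WT and 21.3 CPM in FH-5xA. GRHL2 had 51.8 CPM in parental cells, 4.98 CPM in knockout, 3.56 CPM in FH-WT and 5.40 CPM in FH-5xA. For both, FH-WT had the lowest of the 4 levels. Mesenchymal genes had 1 of 10 called lower, FN1, which encodes fibronectin, and 0 higher (median -0.06). Integrins had 2 of 11 called lower, ITGB8 and ITGA5, the latter at -0.36 ± 0.09 in the authors' deposited table, and 0 higher (median -0.11). Over all genes 5.85% were called lower and 4.21% higher.

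The BCL2 family had 2 of 15 called lower, BCL2L11 and BCL2L1 at -0.25 ± 0.07, and 1 higher, BCL2, in the authors' deposited table (median -0.02). These few calls stand beside 5.85% of all genes called lower and 4.21% called higher. None of the 5 measured colon epithelium markers was called; KRT18 was nearest at -0.20 ± 0.08 in the authors' deposited table (edgeR false discovery rate 0.10). The summed level of these markers was 1602 CPM in knockout, 1457 CPM in FH-WT and 2153 CPM in parental cells. Of the neural and embryonic kidney markers, PAX2 was higher at 0.61 ± 0.17 and GRIN2B lower in the authors' deposited table, and the summed level of the 6 measured was 61.6 CPM in knockout and 58.7 CPM in FH-WT. The 2 measured fibroblast markers, ACTA2 and COL1A1, summed to 7.71 CPM in knockout and 7.41 CPM in FH-WT, and the endothelial marker ESAM stood at 2.48 CPM and 2.69 CPM.

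The 3′ UTR was then examined, since microRNA sites lie there. For 10890 protein-coding genes outside the mitochondrial genome, with at least 1 CPM and a 3′ UTR of at least 100 bases, 7.32% were called lower and 4.10% higher, with a median of -0.01. Genes with long UTRs were lower. Genes were split by UTR length into 5 groups of nearly equal size. In the group with the shortest UTRs (median 235 bases) the median change was 0.04, 3.26% were called lower and 6.24% higher. In the group with the longest (median 4190 bases) the median was -0.08, 13.9% were called lower and 2.2% higher. The 3 groups between gave 4.08%, 6.71% and 8.68% called lower, in order of length. The trend was present when genes were first split into 3 groups by expression, and each of these into 3 by UTR length: among the least expressed genes 4.14% were called lower with the shortest UTRs and 14.9% with the longest, and among the most expressed genes 3.29% and 9.14%. Split in the same way by GC content of the UTR, the shares were 1.97% and 5.87% in the group of highest GC and 4.91% and 13.5% in the group of lowest GC; the difference between these groups was not tested.

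Length of the whole transcript moved with the change just as UTR length did: of 5 groups by transcript length, the shortest had 2.07% and the longest 14.1% called lower. Split by length of the coding part, which lies outside the 3′ UTR, the shortest of 5 groups had 4.07% and the longest 11.3% called lower. UTR length, transcript length and number of sites rise together. Their parts in the trend, and that of coding length, cannot be told apart here. In the comparisons that share libraries with this one, the median changes from the shortest to the longest of the 5 UTR groups went from -0.09 to 0.12 in knockout against parental and from 0.04 to -0.06 in FH-5xA against knockout.

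Genes with sites for single microRNA families were compared with genes without. A site was a match to the seed, bases 2 to 8 of the microRNA; an 8mer has in addition an A opposite base 1. The sequences below, from RefSeq (GRCh38.p14), belong to 6 of the 7 families whose 8mer genes were lowest, all but miR-9, followed by let-7, at the other end of the colon families, and miR-1, known from muscle. Capitals mark the seed.
hsa-miR-17-5p: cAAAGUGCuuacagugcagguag
hsa-miR-20a-5p: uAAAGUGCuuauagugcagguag
hsa-miR-93-5p: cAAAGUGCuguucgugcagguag
hsa-miR-106b-5p: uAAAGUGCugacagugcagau
hsa-miR-200b-3p: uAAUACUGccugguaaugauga
hsa-miR-130b-3p: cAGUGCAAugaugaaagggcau
hsa-miR-301a-3p: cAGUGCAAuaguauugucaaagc
hsa-miR-25-3p: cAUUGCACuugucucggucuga
hsa-miR-92a-3p: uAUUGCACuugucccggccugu
hsa-miR-221-3p: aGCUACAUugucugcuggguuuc
hsa-miR-19b-3p: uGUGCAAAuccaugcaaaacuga
hsa-let-7a-5p: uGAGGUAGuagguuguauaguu
hsa-miR-1-3p: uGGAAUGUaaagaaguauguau
MIR17 lies at chr13:91350618-91350640 on the plus strand, with MIR20A, MIR19B1 and MIR92A1 downstream of it in the same cluster. MIR93, MIR106B and MIR25 lie together on chromosome 7, at chr7:100093815-100093837, chr7:100094043-100094063 and chr7:100093571-100093592 on the minus strand. MIR200B lies at chr1:1167160-1167181 on the plus strand.

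Genes with an 8mer were lower than genes without a site for every family with a sequence, 25 known from colon or most tissues and 8 known from other tissues. The difference in median log2 fold change ran from -0.099 to -0.035 over the colon families (median -0.063) and from -0.076 to -0.026 over the others (median -0.048). The lowest value belonged to the miR-17 family, whose 8mer is GCACTTTA and was held by 5.34% of UTRs searched. Of its 582 genes, 17.4% were called lower and 1.72% higher, beside 7.32% and 4.10% of all genes searched. Next came the miR-200b family (CAGTATTA, in 5.01% of UTRs) at -0.086, the miR-130 family (TTGCACTA, in 3.2%), which includes miR-301, at -0.082 and the miR-25 family (GTGCAATA, in 3.45%) at -0.079. The miR-221 family (ATGTAGCA, in 3.43%) was at -0.076. The miR-19 family (TTTGCACA, in 6.69%) was at -0.073, and the let-7 family (CTACCTCA, in 3.99%) at -0.035. Among families of other tissues miR-9, best known from neurons, stood lowest at -0.076, and miR-1 (ACATTCCA, in 4.96%) was at -0.065.

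Part of these differences moved with UTR length: genes with a miR-17 8mer had a median UTR of 3053 bases, against 839 bases for genes without a site. Within the longest of 3 groups by UTR length (1894 to 32870 bases), the miR-17 difference was -0.046, that of the miR-130 family -0.060 and that of miR-19 -0.052. There all 25 colon families still lay below 0 (median -0.029), and 5 of the 8 others did (median -0.016). In the middle group 18 of 25 colon families (median -0.027) and 7 of 8 others (median -0.033) were below 0, and in the shortest group 13 of 25 and 4 of 8. The difference between the classes of family was not tested.

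Several of the lowest families have overlapping sites. The letters GCAC occur in the 8mers of the miR-17, miR-19, miR-130 and miR-148 families, and TGCA in those of the miR-19, miR-130, miR-25, miR-103 and miR-148 families. TGCTGC is shared by the 8mers of the miR-15 and miR-103 families. The miR-128 8mer, CACTGTGA, holds the whole seed match of miR-27, ACTGTGA. Genes with a miR-128 8mer, counted under other tissues, therefore all have a site of a colon family too. Of the 10890 genes, 2111 had an 8mer of 1 or more of the 5 families of miR-17, miR-19, miR-25, miR-130 and miR-148, a grouping made after the order of families was seen. Within the longest of the 3 UTR groups, the median change was -0.05 for 2219 genes with none of these 8mers, -0.08 for 1097 genes with those of 1 family, -0.13 for 251 genes with 2 and -0.16 for 61 genes with 3 or more. The shares called lower were 10.2%, 13.6%, 19.9% and 31.1% in that order, and median UTR length also rose, from 2967 to 5613 bases.

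The number of sites was counted for 5 single families, and the share called lower rose through every step in miR-19 and miR-1 but not in the other 3. For miR-19, 6.40% of genes with 0 sites, 11.4% with 1 site, 17.9% with 2 sites and 27.3% of the 44 genes with 3 or more were called lower. For the miR-1 family the shares were 6.53%, 12.3%, 15.3% and 25.7%, the last of 35 genes. For the miR-17 family they were 5.97%, 11%, 13.7% and 13.0%, and for the miR-130 family 6.33%, 11.7%, 17.4% and 16.9%. For let-7 they were 6.94%, 10.7%, 9.62% and 5.26%, the last of 19 genes. Median UTR length rose with site number in all 5 families.

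Genes called lower with the smallest p among those with an 8mer show how such sites lie. The 30-base windows below are from the 3′ UTRs in GENCODE 29 (GRCh38), read 5′ to 3′ on the gene's strand, with the 8mer in capitals.
DSC2, miR-17 family: aggtaaacagaGCACTTTAatttaaaagaa
DSC2, miR-19: cacagttaatcTTTGCACAatgcatcgcat
CYBRD1, miR-17 family: cactcctctaaGCACTTTAcacatattagc
TFPI, miR-19: tatcattaggaTTTGCACAcaatgcaacta
TFPI, miR-200b family: atccttcccatCAGTATTAattcctcagaa
TRIM2, miR-130 family: cttccatggtcTTGCACTAtaaactggaat
ITGB8, miR-130 family: ccctcacttgtTTGCACTAactttatagtg
CPA4, let-7: catgtctctctCTACCTCAtttttagaacc
The DSC2 windows are chr18:31061576-31061605 and chr18:31059146-31059175 on the minus strand. The TFPI windows are chr2:187466053-187466082 and chr2:187465177-187465206 on the minus strand. CYBRD1 has chr2:171555686-171555715, TRIM2 chr4:153334988-153335017, ITGB8 chr7:20412556-20412585 and CPA4 chr7:130322975-130323004, all on the plus strand. A match is only these letters in the annotated UTR, and binding was not measured.

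DSC2, a desmosomal cadherin whose 9175-base UTR held 8mers for many of the families, had 59.7 CPM in parental cells, 86.1 CPM in knockout, 56.3 CPM in FH-WT and 51.7 CPM in FH-5xA, and fell by 0.61 ± 0.07 in the authors' deposited table. CYBRD1, an iron reductase with 4 matches to the miR-17 seed in a 3306-base UTR, had 39.8 CPM, 86.6 CPM, 54.2 CPM and 60.4 CPM in that order, and fell by 0.68 ± 0.08 in the authors' deposited table. Both were highest in the knockout. TRIM2, a ubiquitin ligase of neurons and other cells with 3 matches to the miR-130 family seed, was level in parental cells and knockout, at 93.2 CPM and 93.5 CPM, and lower in FH-WT, at 60.6 CPM, with a change of -0.63 ± 0.08 in the authors' deposited table. Other 8mer genes named by the same rule included the sestrin SESN3 at -0.91 ± 0.14, the kinase FRK at -0.77 ± 0.11 and the neurotrophin BDNF at -0.73 ± 0.08 in the authors' deposited table. Further ones were DDIT4L at -0.99 ± 0.15, SLC2A12 at -0.96 ± 0.14, MAP2 at -0.77 ± 0.12, SERPINB1 at -0.63 ± 0.08 and IBTK at -0.53 ± 0.08 in the authors' deposited table.

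**Figure D4:**
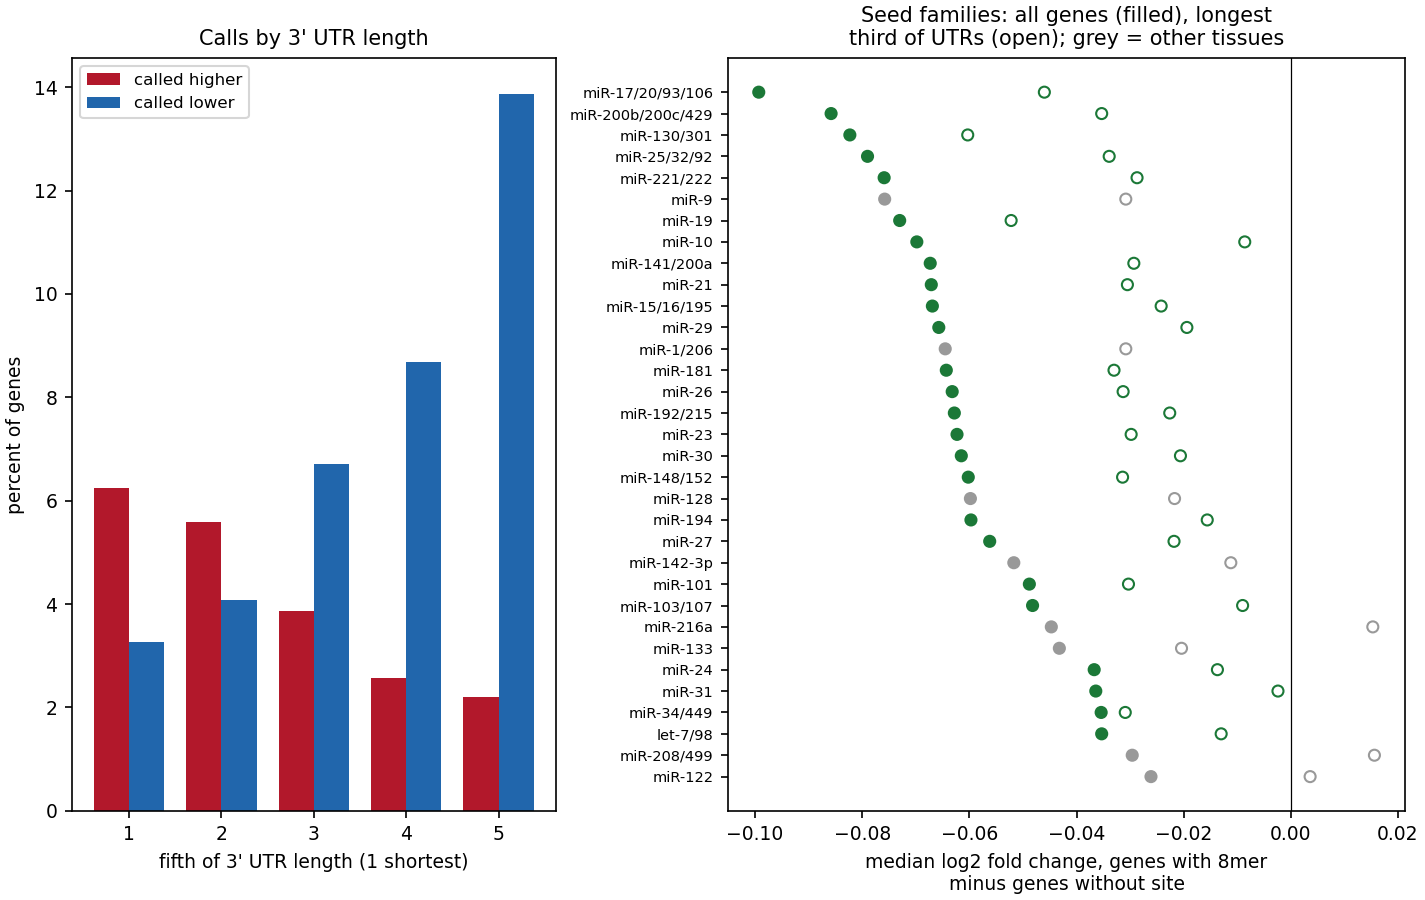
Left, percent of genes called higher (red) and lower (blue) in 5 groups of 3′ UTR length from shortest to longest; right, for 33 microRNA families, the difference in median log2 fold change between genes with an 8mer and genes without a site, over all genes (filled) and among the longest UTRs of 3 groups (open), with colon families in green and families of other tissues in grey. Calls lower rise from 3.26% to 13.9% with UTR length, and the open points lie nearer to 0 than the filled ones in all 33 families.

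RNA of the mitochondrial genome stood higher in FH-WT, with wide errors. Of the 20 measured, 9 were called higher and 0 lower, beside 4.21% and 5.85% of all genes. The median SE was 0.488, against 0.0992 for other genes of at least 10 CPM. MT-RNR2, the large ribosomal RNA of mitochondria, had 939 CPM in parental cells, 2094 CPM in knockout, 19430 CPM in FH-WT and 8029 CPM in FH-5xA, with a change of 3.21 ± 0.75 in the authors' deposited table. Of the 13 mitochondrial mRNAs 8 were called higher. MT-ATP8 was at 2.58 ± 0.67, MT-ND2 at 2.55 ± 0.69, MT-ND5 at 2.10 ± 0.63 and MT-ND6, the mRNA of the other strand, at 1.92 ± 0.43 in the authors' deposited table. The mRNAs of cytochrome c oxidase were not called: MT-CO1 was at 0.37 ± 0.30, MT-CO2 at 0.59 ± 0.31 and MT-CO3 at 0.19 ± 0.26 in the authors' deposited table. MT-CYB at 1.19 ± 0.50, MT-ND4L at 1.29 ± 0.47 and the small ribosomal RNA MT-RNR1 at 1.10 ± 0.48 in the authors' deposited table were not called either. None of the 5 mitochondrial tRNAs was called.

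RNA from the mitochondrial genome had a share of all fitted expression that was 3.91% for FH-WT, 1.29% for knockout, 0.870% for parental cells and 1.99% for FH-5xA. Without MT-RNR2 the shares were 2.07% in FH-WT and 1.08% in knockout. MT-RNR2 is a ribosomal RNA, and how far ribosomal RNA had been removed from each library was not analysed here. Nuclear genes for the same organelle did not move with them: 0 of 24 nuclear subunits of oxidative phosphorylation were called (median -0.03), and of 20 genes that copy, transcribe or process the mitochondrial genome 1 was called higher, SLIRP at 0.30 ± 0.09 in the authors' deposited table (median 0.09). With the added shift, 3 genes of the latter list were called higher. With the F distribution none of the 9 mitochondrial genes was called. Per-library values were not analysed here, so whether the rise was present in all 3 FH-WT libraries was not tested.

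**Figure D5:**
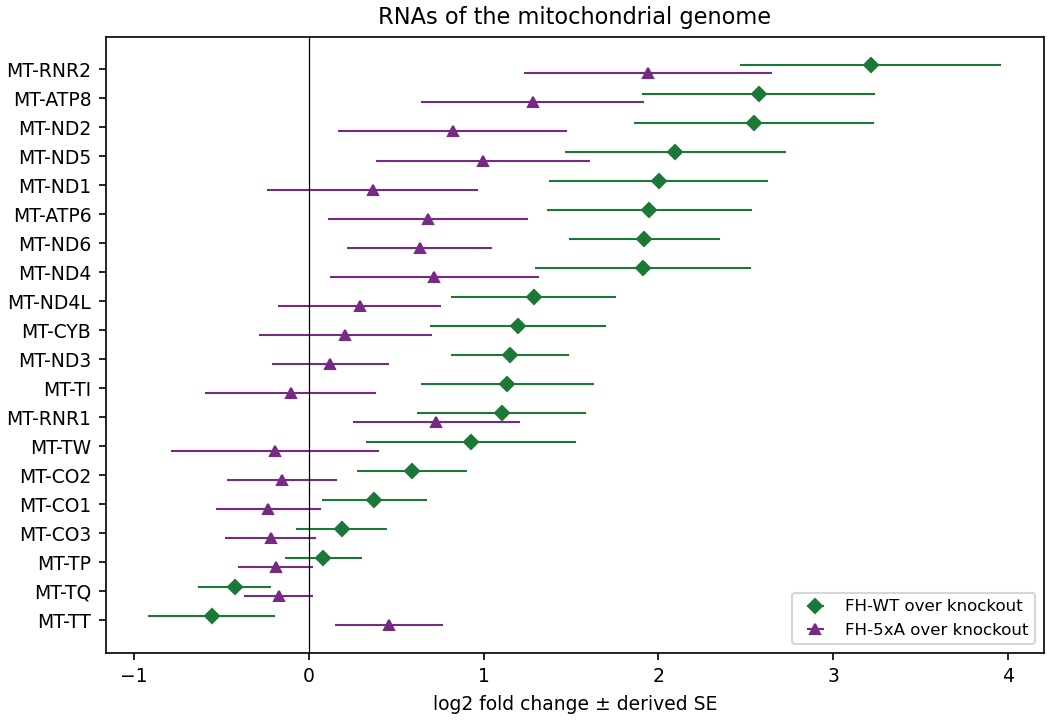
Log2 fold change over knockout of the 20 measured RNAs of the mitochondrial genome in FH-WT (green diamonds) and FH-5xA (purple triangles), with bars of 1 derived SE. The FH-WT values run from -0.56 for MT-TT to 3.21 for MT-RNR2 and lie right of the FH-5xA values for every RNA except the tRNAs MT-TT and MT-TQ.

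Noncoding genes of at least 1 CPM outside the mitochondrial genome included the largest single change. ENSG00000281383, annotated on chromosome 21 (8254592 to 8255514, minus strand, GRCh38), had 0.127 CPM in parental cells, 0.215 CPM in knockout, 155 CPM in FH-WT and 26.5 CPM in FH-5xA, with a fitted change of 9.49 with an SE of 1.3 in the authors' deposited table that depends on the prior count. It lies 1267 bases from the 5.8S ribosomal RNA gene RNA5-8SN2, on the other strand, within repeated ribosomal DNA, so reads of ribosomal precursors could not be told apart from it. MTATP6P1 at 2.68 ± 0.75 and MTND2P28 at 1.91 ± 0.63 in the authors' deposited table are nuclear copies of mitochondrial genes on chromosome 1 and remain uncertain, and so does the processed pseudogene ENSG00000232499 at 1.17 ± 0.33. LNCAROD, a long noncoding RNA (chromosome 10, 52450874 to 52755409), had 13.0 CPM in parental cells, 9.23 CPM in knockout, 23.4 CPM in FH-WT and 27.3 CPM in FH-5xA, and rose by 1.34 ± 0.15 in the authors' deposited table.

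Small structured RNAs were among the noncoding falls. SNORA53, a guide RNA for pseudouridine, had 39.2 CPM in parental cells, 36.2 CPM in knockout, 13.6 CPM in FH-WT and 14.7 CPM in FH-5xA, and fell by 1.42 ± 0.17 in the authors' deposited table. SNORA74A fell by 1.07 ± 0.23 and the Y RNA RNY1 by 1.63 ± 0.56 in the authors' deposited table. The long noncoding RNA UCA1 fell by 1.14 ± 0.18 and MIR31HG by 0.97 ± 0.25 in the authors' deposited table. Over 64 small nucleolar RNAs 6 were called lower (9.4%) and 1 higher (1.6%), with a median of 0.05. The shares over all genes were 5.85% lower and 4.21% higher. Of 8 measured nuclear and polymerase III RNAs 2 were called lower, RNY1 and the spliceosomal RNU4-2 at -0.77 ± 0.26, and 0 higher in the authors' deposited table (median -0.38).

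Calls were also counted by class of gene. Over all genes 4.21% were called higher and 5.85% lower. Among 11784 protein-coding genes outside the mitochondrial genome 489 were called higher (4.15%) and 829 lower (7.0%). Among 1738 pseudogenes 89 were called higher (5.1%) and 16 lower (0.92%), with a median of 0.08. Among 1244 long noncoding genes the counts were 39 (3.1%) and 21 (1.7%), with a median of 0.04. The median SE was 0.109 for the protein-coding genes, 0.182 for pseudogenes and 0.219 for long noncoding genes. A change of a given size is less readily called where the SE is wider, so these shares are not directly comparable. Pseudogene reads can come from the parent genes. By expression, the share called higher rose from 2.03% in the lowest of 5 groups to 8.1% in the highest, while the shares called lower were 3.39%, 6.41%, 7.24%, 7.01% and 5.25% from lowest to highest. The median SE was 0.246 in the lowest group and 0.085 in the highest. Among chromosomes 1 to 22 and X the highest median was that of chromosome 19 (0.07), and the lowest that of chromosome 4 (-0.03). Of 974 genes on chromosome 19, 43 were called higher (4.4%), near the share over all genes, and 21 lower (2.16%).

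FH-WT and FH-5xA were compared only through the knockout that both share. Their derived difference was called in 620 of 15072 genes (4.11%) at a Benjamini-Hochberg adjusted p under 0.05. For some of the genes described above the FH-5xA values lay close to those of FH-WT: CPA4 was at -1.55 with FH-WT and -1.49 with FH-5xA, NEBL at -1.08 and -1.11, DPP4 at -1.25 and -1.19, and AGO2 at 0.75 and 0.73 in the authors' deposited tables. Medians of some lists had opposite signs, -0.11 and 0.12 for epithelial genes and 0.32 and -0.03 for replication-dependent histones. Agreement in sign was not counted over genes, and the shared knockout libraries make the values dependent.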

How the data were processed

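RNA-seq of 12 HCT116 libraries had been aligned with TopHat2 2.0.12 to hg38, counted with featureCounts 1.4.6 and tested with edgeR 3.8.6, per the submitters' processing notes, which also name Cufflinks 2.2.1. Not given in the sources used here are annotation, strand setting, filter and normalization. The deposited edgeR tables give, per the file headers, a log2 fold change, mean expression in log2 CPM, a likelihood ratio (a score), a p-value and an FDR for each of 15074 genes. The planned count test gave way to these tests, because per-library values were not analysed here. Depth per library is therefore unknown, and no interval or floor from counts is given.

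The deposited p-values matched a chi-square test of the likelihood ratio (1 degree of freedom), so the SE was taken as the size of the log2 fold change over the square root of the likelihood ratio. Group levels came from the deposited mean and fold changes, the 4 groups weighted equally. The difference between FH-WT and FH-5xA was derived from group variances fitted to the deposited tables, with a chi-square test and Benjamini-Hochberg adjustment. 3′ UTRs were those of GENCODE 29 (GRCh38), the transcript strand was searched, and 15029 genes matched the annotation. MicroRNA sequences came from RefSeq; 60 of 63 matched, and miR-124-3p, miR-30d-5p and miR-10b-5p are not analysed here. The arithmetic of the derivations was checked on simulated group values drawn with the variances that the derivations assume, not on simulated counts. Such a check cannot show that the derived errors hold for these data. Python 3.11.15, pandas 2.3.3, numpy 2.4.6, scipy 1.17.1 and matplotlib 3.10.9 were used.

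Named genes were the 12 largest protein-coding and 5 largest noncoding changes in each direction at 1 CPM or more, the 10 smallest p, all members of the microRNA pathway and Argonaute phosphorylation lists, up to 4 members of each other list, and up to 3 genes called lower per colon family with an 8mer. Members and lists were chosen with earlier results of these data known. Other settings tried were another FDR, filters on expression, an F distribution, other scalings and other definitions of site and transcript.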

Additional observations from a re-analysis of the deposited data

Results flagged for a closer look

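Genes were taken up here when the change with FH-WT and the change with FH-5xA, both against the same knockout libraries, differed at an adjusted p under 0.05; 20 of 69 genes tested did so (chi-square test on the derived difference, Benjamini-Hochberg over all genes), beside 4.11% of all genes. Most of the 69 were named for a large change or a small p in FH-WT against knockout, which is part of the difference tested, so the count is not independent of that choice and says nothing of how common such differences are. The F distribution, which left 86 genes called in FH-WT against knockout, was not used for this difference. All values are log2, FH-WT minus FH-5xA. They describe these wells, and whether the mutation or another difference between the lines goes with them was not tested.

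Metallothioneins were higher in FH-WT than in FH-5xA: MT1E by 1.30 (adjusted p 5.9e-10), MT2A by 1.32 (adjusted p 0.0031) and MT1X by 0.89 (adjusted p 0.0075). With FH-5xA they stood near their knockout levels, at 182 CPM for MT1E beside 199 CPM in knockout and at 137 CPM for MT2A beside 121 CPM. Other genes with a positive difference were CHAC1 at 0.82 (adjusted p 0.0027), CSTA at 0.97 (adjusted p 0.025), SPRR2D at 0.62 (adjusted p 0.016) and VSNL1, a neuronal calcium sensor, at 0.50 (adjusted p 0.012). VSNL1 differed from the others in that both lines fell, to 7.59 CPM with FH-WT and 5.38 CPM with FH-5xA from 13.3 CPM in knockout.

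Among genes that fell further with FH-WT were the epithelial genes EHF at -0.83 (adjusted p 0.004), CDH1 at -0.43 (adjusted p 0.002) and MAL2 at -0.36 (adjusted p 0.011). CSTA, also of epithelia, and the cornified envelope gene SPRR2D differed in the other direction, at 0.97 and 0.62. ITGB8 was at -1.09 (adjusted p 0.00021) and LOXL4 at -0.58 (adjusted p 0.0023). ALDH1A3, a retinoic acid synthesising enzyme, was at -0.43 (adjusted p 9.6e-07), and its level was 199 CPM in knockout, 132 CPM in FH-WT and 178 CPM in FH-5xA. GPRC5A, a receptor induced by retinoic acid, was at -0.48 (adjusted p 1.6e-06), and its level in FH-5xA, 197 CPM, lay beside that of knockout. TRIM2 was at -0.34 (adjusted p 0.0023), EMP1 at -0.40 (adjusted p 0.0025) and CYP4F12 at -1.04 (adjusted p 0.01).

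The remaining values were -0.96 for MIR31HG (adjusted p 0.013), -2.48 for RNY1 (adjusted p 0.0024) and -4.64 for ZNF615 (adjusted p 0.0093). ZNF615 stood at 0.119 CPM in knockout, 0.0059 CPM in FH-WT and 0.148 CPM in FH-5xA, so the size of its value depends on the prior count.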

How the results depend on the processing

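No paired analysis was possible because the deposited tables hold comparisons and no values of single libraries; leaving out each replicate and the replicate block were therefore not run, and no count model was run. At an FDR under 0.01, 688 genes were called, 220 higher and 468 lower. With the F distribution (1 and 8 degrees of freedom) in place of chi-square, which allows for the spread of few replicates, 86 were called, 15 higher and 71 lower, none of them mitochondrial. At a fold change of 1.5 or more 329 were called, 142 higher and 187 lower. With the added shift of about 0.04, 1012 were called higher and 658 lower. List members called numbered 126, and 81, 16 and 34 under the first 3 of these settings. The median difference of the colon families between genes with and without a site, -0.052, was -0.0108, -0.0125 and -0.0215 in the shortest, middle and longest UTRs of 3 groups, and -0.0263 at the highest UTR GC content, a split chosen after seeing the data. Without MT-RNR2, also chosen after seeing the data, the mitochondrial share of FH-WT was 2.07% in place of 3.91%. Filters at 1 CPM or 10 CPM, leaving out mitochondrial genes, and centring on the median moved the count of called genes by less than 1.5 times. Among named genes that were called, 0 changed direction under these settings. Of 233 named, 232 could be compared at 1 CPM, 183 at 10 CPM and 213 without mitochondrial genes or with the added shift. Named genes no longer called were 28 at an FDR under 0.01, 98 with the F distribution and 64 at the fold limit. With the added shift they were 5 (NFKBIA, CDK6, MET, CCND1 and MAML2). Errors were widest for the mitochondrial RNAs and for genes under 1 CPM, where only large changes could be called.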
